A study of Mus musculus with 10 samples.

Results

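The cytoskeleton of young neurons is described here through 10 genes, chosen by symbol from the 16338 genes of the RNA table: Mapt, Map2, Map1b, Dcx, Dclk1, Tubb3, Stmn2, Stmn3, Nefl and Nefm. All 10 were found there, and all 10 passed the filter of a mean of at least 10 normalized counts. The tissue was the cortical midline of C57/Bl6 mouse embryos on embryonic day 14.5. For RNA-seq, 2 libraries came from conditional knockout (cKO) embryos with floxed alleles of Rcor2 and EMX1-iCRE, a recombinase that acts in dorsal telencephalic progenitors and their offspring. The other 2 RNA libraries came from control embryos that carried the floxed Rcor2 alleles without the recombinase. In wild-type midline, Rcor2 was mapped on chromatin by immunoprecipitation and sequencing (ChIP-seq), and 2 libraries each were made with an Rcor2 antibody, with rabbit IgG and from input chromatin. Ventrally born interneurons that migrate into the cortex come from outside the lineage of this recombinase. The labels do not say whether tissue was pooled, so p-values measure only the spread between these libraries.

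Microtubules are polar tubes of alpha and beta tubulin that fill axons and dendrites and serve as tracks for transport. Microtubule-associated proteins bind along them and stabilise or space them, stathmins bind free tubulin and favour shortening, and neurofilaments are intermediate filaments that later widen axons. Neurons switch on these genes as they leave the cell cycle and migrate, which is why Tubb3, Dcx and Map2 serve as markers of the neuronal state. Rcor2 is a scaffold of the CoREST family of co-repressors, and the repressor Rest, which recruits CoREST, is known to silence Stmn2 and other neuronal genes outside neurons.

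The promoter sequences of 3 of these genes are shown because they span the range of response, from a strong fall (Stmn3) through an intermediate fall (Tubb3) to a small difference that did not pass the test (Map1b). They are the 250 bases before the RefSeq start, on build GRCm38.p6, 5′ to 3′ on the strand of the gene, and capitals mark 3 common promoter elements on either strand. These are the GC box, searched as GGGCGG, the element named after its letters CCAAT, and the TATA box, searched as TATAAA. Stmn3 lies at chr2:181314501-181314750 on the minus strand, Tubb3 at chr8:123411303-123411552 on the plus strand and Map1b at chr13:99516603-99516852 on the minus strand.
Stmn3: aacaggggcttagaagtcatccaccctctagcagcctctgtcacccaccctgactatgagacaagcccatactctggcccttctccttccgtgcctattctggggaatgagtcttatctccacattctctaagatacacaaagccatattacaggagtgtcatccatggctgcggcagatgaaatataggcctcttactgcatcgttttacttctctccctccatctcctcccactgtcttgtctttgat
Tubb3: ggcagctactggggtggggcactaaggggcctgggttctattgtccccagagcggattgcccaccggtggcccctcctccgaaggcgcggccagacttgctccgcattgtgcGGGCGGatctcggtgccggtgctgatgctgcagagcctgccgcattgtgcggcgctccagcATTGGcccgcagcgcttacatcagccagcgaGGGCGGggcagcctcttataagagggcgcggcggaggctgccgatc
Map1b: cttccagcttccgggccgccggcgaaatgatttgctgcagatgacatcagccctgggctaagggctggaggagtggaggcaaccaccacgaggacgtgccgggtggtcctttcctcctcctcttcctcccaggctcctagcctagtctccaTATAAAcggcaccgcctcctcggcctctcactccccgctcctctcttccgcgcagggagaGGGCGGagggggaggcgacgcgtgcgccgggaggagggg

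The 3 stretches differ in composition. The Stmn3 stretch had 48.8% G and C and none of these 3 motifs. The Tubb3 stretch had 68% G and C with 2 GC boxes and 1 CCAAT element, and the Map1b stretch 66.4% with 1 GC box and 1 TATA box. The median over all 32851 RefSeq promoter windows was 52.4% G and C. RefSeq windows were found for 6 of the 10 genes, 8 windows in all, since Dcx and Dclk1 had 2 each, and those of Dcx overlap; no window was matched for Mapt, Stmn2, Nefl and Nefm. A GC box was found in 3 of the 8 windows, against 32.7% of all windows, CCAAT in 3 against 33.8%, and a TATA box in 3 against 12.4%. The TATA box of both Dcx windows is the same site, so it was counted more than once. The remaining window with a TATA box was that of Map1b. An E box (CANNTG), the core motif of proneural factors, was in 4 of the 8 against 66.2% of all windows, and GGACAG, a part of the Rest motif RE1, in 1, that of Map2, against 18.7%. These matches were searched on both strands and describe letters only.

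Whole reads recovered per RNA library numbered 28309925 and 29783893 in the cKO and 30270598 and 27674987 in the controls. Rcor2 itself had 6363 and 6840 normalized counts in the cKO libraries, against 7901 and 7257 in the controls, a log2 change of -0.20 (SE 0.057, limma adjusted p 0.0541) that did not pass the threshold. It passed narrowly in the authors' deposited table (adjusted p 0.0444) and with DESeq2 (adjusted p 0.0478), and in limma without cKO replicate 2 (adjusted p 0.0096), so the call for Rcor2 depended on the test and the libraries. The sources used here do not name the floxed exons, so a count over the whole gene is a weak check of the genotype. In each genotype replicate 1 had high counts of Y-linked genes and replicate 2 of Xist, so replicate number and sex coincide and each genotype held 1 library of each kind. The cKO library of replicate 1 stood apart in 7 markers of meningeal fibroblasts, whose summed level was 8351 in it and 1786 in cKO replicate 2, against 1412 and 1229 in the controls. Counts of called genes or median log2 changes are therefore also given without it for the 10 genes and for most lists.

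All 10 genes had lower normalized counts in both cKO libraries than in both controls, and 8 of them fell at a limma adjusted p under 0.05. Across all 14324 tested genes, 8.29% fell and 6.16% rose under the same rule. For the separation of the libraries no such share was counted. It also occurred in related genes that did not pass the test. The median log2 change of the 10 genes was -0.43, with a range of -0.75 to -0.21, and that of all tested genes -0.01. Together the 10 genes made up 0.858% and 0.903% of the normalized counts of the cKO libraries, against 1.07% and 1.09% in the controls. In bulk tissue, fewer neurons and less of these transcripts per neuron cannot be told apart. Without cKO replicate 1, 7 of the 10 fell (5.83% of all tested genes fell), and the median over the 10 genes was -0.37 for cKO replicate 2 and -0.45 for cKO replicate 1, each set against the mean of both controls. In the authors' deposited table, 8 of the 10 fell, where 6.73% of the genes with an adjusted p fell.

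**Figure D1:**
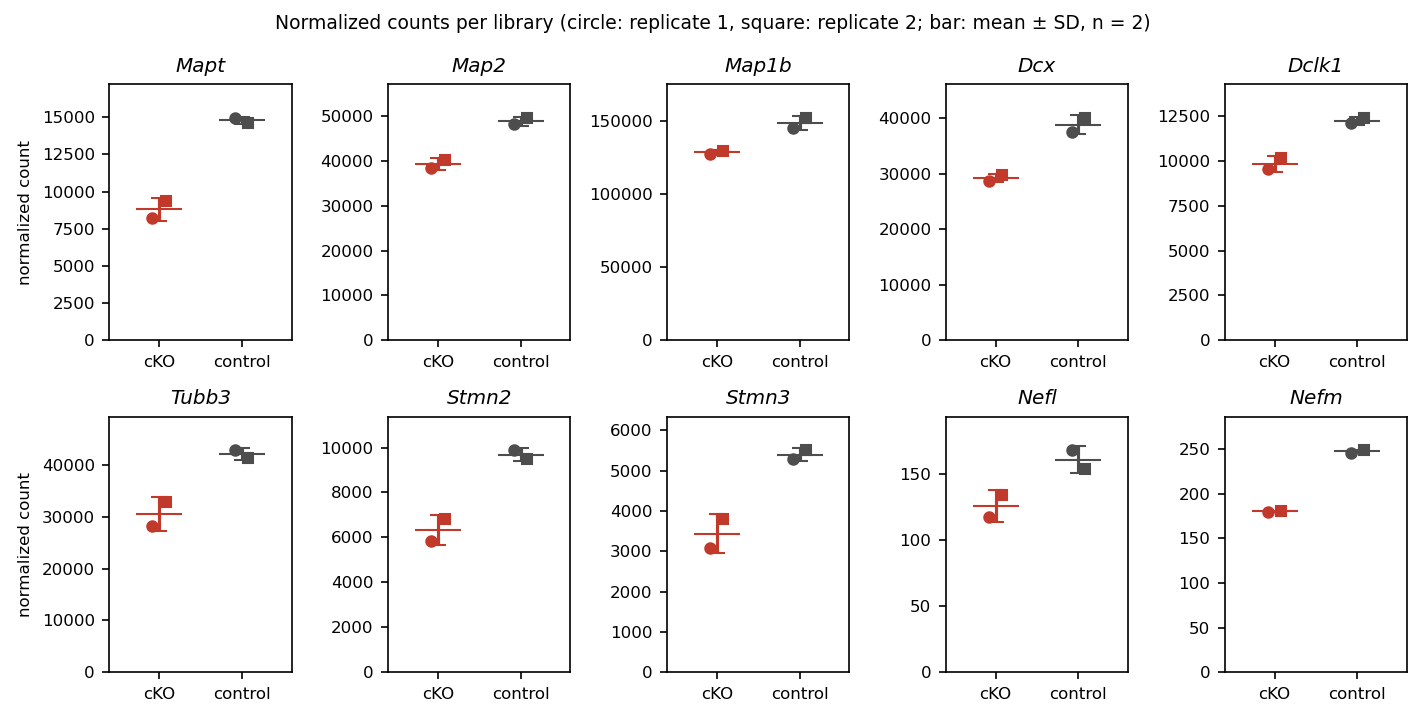
Normalized counts (vertical axes, from 0) of the 10 genes in each RNA library, cKO in red and control in grey, with the mean ± SD of the 2 libraries per genotype. Both cKO points lie below both control points in every panel, and the distance is widest relative to the level for Mapt, at 59.4% of the control mean.

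Among the microtubule-associated proteins, Mapt differed most and Map1b least. Mapt encodes tau, which binds along axonal microtubules. Mapt had 8239 and 9347 normalized counts in the cKO libraries, against 14957 and 14637 in the controls. The control libraries lay close together, and the higher cKO library was still far below them. The cKO mean was 8793 ± 783 and the control mean 14797 ± 226 (SD, n = 2 each), so that the cKO stood at 59.4% of the control. The log2 change was -0.75 (SE 0.062, limma adjusted p 0.00263), with a 95% interval of -0.90 to -0.61. It was -0.85 for cKO replicate 1 and -0.66 for cKO replicate 2, each against both controls.

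Map2 encodes the counterpart of tau in dendrites and cell bodies. Map2 had 38430 and 40217 normalized counts in the cKO libraries, against 48221 and 49649 in the controls, and fell by 0.32 on the log2 scale (SE 0.051, limma adjusted p 0.00842), to 80.4% of the control mean. Map1b encodes a large protein of growing axons that acts early in their outgrowth. Map1b had 127638 and 129870 normalized counts in the cKO libraries, against 145494 and 152336 in the controls, at 86.5% of the control mean. The groups did not overlap, but the log2 change of -0.21 (SE 0.061) had a limma adjusted p of 0.0547 and did not pass. Map1b passed in the authors' deposited table (log2 -0.20, SE 0.048, adjusted p 0.000963), so its call depended on the test. The ratio of Mapt to Map1b counts was 0.0645 and 0.0720 in the cKO libraries, against 0.103 and 0.0961 in the controls. This ratio was lower in both cKO libraries, by -0.54 on the log2 scale. The smallest exact permutation p for a single such value in these 4 libraries is 0.333, so no p is given for it.

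The doublecortin genes fell by a similar amount. Dcx encodes a microtubule-binding protein that migrating neurons need, and lies on chromosome X. Dcx had 28651 and 29694 normalized counts in the cKO libraries, against 37567 and 40034 in the controls. Its log2 change was -0.41 (SE 0.052, limma adjusted p 0.0054). Each cKO library was below the control library of the same replicate number, which is also of the same sex. Dclk1 encodes a relative with an added kinase domain. Dclk1 had 9541 and 10173 normalized counts in the cKO libraries, against 12096 and 12409 in the controls, and fell by 0.31 on the log2 scale (SE 0.048, limma adjusted p 0.00749). Its cKO mean was 80.4% of the control, against 75.2% for Dcx. The ratio of Dcx to Dclk1 counts was 3.003 and 2.92 in the cKO libraries and 3.11 and 3.23 in the controls.

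Tubb3 encodes the neuronal class III beta tubulin. Tubb3 had 28160 and 32880 normalized counts in the cKO libraries, against 42795 and 41287 in the controls. The cKO libraries lay further apart than the controls, with an SD of 3337 around 30520 in the cKO and of 1067 around 42041 in the controls (n = 2 each). The fall was 0.47 on the log2 scale (SE 0.073, limma adjusted p 0.00788). On that scale the fall was 0.58 for cKO replicate 1 alone and 0.35 for cKO replicate 2 alone.

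The stathmin genes had nearly the same fall. Stmn2 encodes a membrane-bound stathmin of growth cones, also called SCG10. Stmn2 had 5845 and 6801 normalized counts in the cKO libraries, against 9885 and 9468 in the controls, and fell by 0.62 on the log2 scale (SE 0.070, limma adjusted p 0.00429). Stmn3, which encodes a further neuronal stathmin, had 3097 and 3793 in the cKO libraries, against 5288 and 5513 in the controls. It fell by 0.66 on the log2 scale (SE 0.085, limma adjusted p 0.00566). The ratio of Stmn2 to Stmn3 counts was 1.89 and 1.79 in the cKO libraries, against 1.87 and 1.72 in the controls, so the values of the genotypes overlapped. The ratio of Stmn2 to Stmn1 counts, by contrast, was 0.872 and 0.896 in the cKO libraries, against 1.21 and 1.24 in the controls; Stmn1 encodes a stathmin that progenitors also express.

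The neurofilament genes were measured on few reads. Nefm, the medium subunit, had 180.0 and 180.1 normalized counts in the cKO libraries, against 246 and 249 in the controls. It fell by 0.46 on the log2 scale (SE 0.11, limma adjusted p 0.0329). Nefl, the light subunit, had 117 and 134 in the cKO libraries, against 168 and 154 in the controls. The groups of Nefl did not overlap, but its log2 change of -0.35 (SE 0.15, limma adjusted p 0.145) did not pass. In the authors' deposited table neither gene passed, with adjusted p-values of 0.175 for Nefm and 0.494 for Nefl. Without cKO replicate 1, Nefm had a limma adjusted p of 0.0669 and did not pass. The ratio of Nefl to Nefm counts was 0.651 and 0.745 in the cKO libraries, against 0.683 and 0.617 in the controls.

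**Figure D2:**
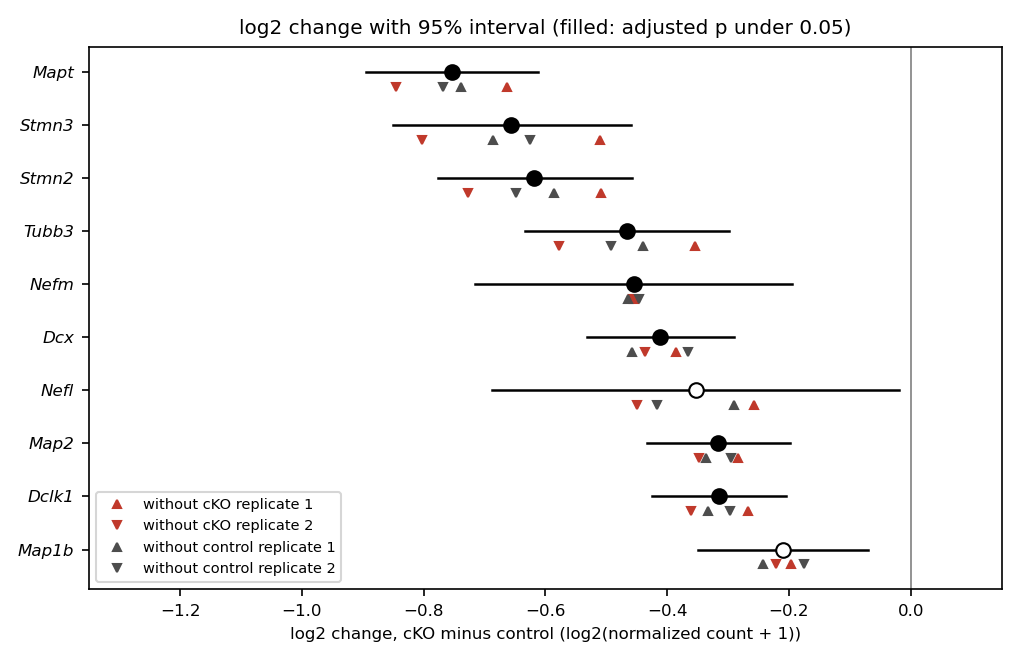
The log2 change of each gene, cKO minus control (circles, filled where the adjusted p is under 0.05), with its 95% limma interval and, below each circle, the log2 change without each library in turn. The circles run from -0.75 for Mapt to -0.21 for Map1b, and the values without a library all lie below 0, from -0.85 for Mapt to -0.18 for Map1b. The values without 1 or the other cKO library lie further apart than those without a control for 7 of the 10 genes, the exceptions being Map1b, Dcx and Nefm.

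The order of the changes from the strongest fall was Mapt, Stmn3, Stmn2, Tubb3, Nefm, Dcx, Nefl, Map2, Dclk1 and Map1b. No neighbours in this order were further apart than 1.5 of their combined standard errors, the widest gap being that between Stmn2 and Tubb3 (0.15 on the log2 scale, combined SE 0.10). This combined SE treats the genes as independent although they were measured in the same libraries. It is therefore no test of their order. For 9 of the 10 genes the log2 change was larger in size in cKO replicate 1 than in cKO replicate 2 by more than 0.01; for Nefm it was -0.46 in both. The call also depended on the controls: without control replicate 1, 4 of the 10 fell (Mapt, Dcx, Stmn2 and Stmn3; 0.761% of all tested genes fell), and without control replicate 2, 2 fell (Mapt and Stmn2; 0.572% of all tested genes). In these fits the lone control is assumed to vary as the cKO libraries do.

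**Figure D3:**
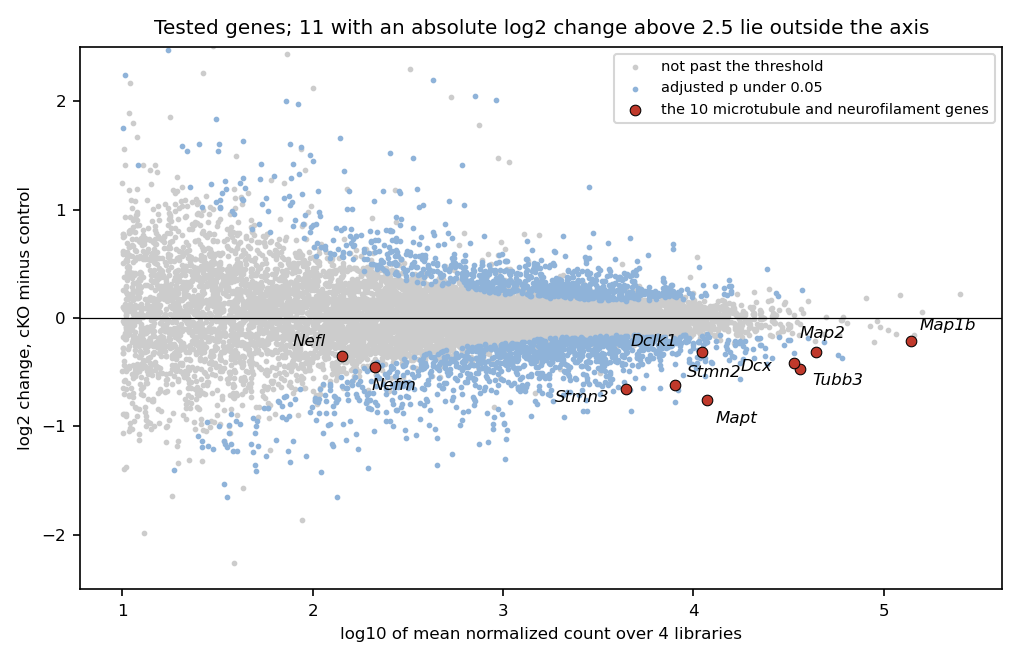
The log2 change, cKO minus control, of all tested genes (vertical axis) against the log10 of the mean normalized count (horizontal axis), with the 10 genes in red; 11 genes lie outside the vertical axis. The 10 genes all lie below 0, and Mapt, Stmn2 and Stmn3 lie near the lower edge of the genes of similar count.

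Of 98 tested genes in 8 related microtubule, filament and growth cone lists, 36 fell and 6 rose, while 56 did not reach the threshold; their median was -0.15 on the log2 scale. Without cKO replicate 1, 25 fell and 3 rose. Without control replicate 1, 0 fell and 0 rose in limma (38 and 7 at an unadjusted p under 0.05), and without control replicate 2, 2 fell (Mapre2 and Kif5a) and 0 rose (43 and 7), so the counts of the lists described next depended on having both controls. With edgeR on all 4 libraries, 25 fell and 4 rose. Of these 98 genes, 26 (the share of all tested genes was 20.9%) were named for an Rcor2 peak.

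Tubulin genes moved in both directions. Of 10 tested alpha and beta tubulins, 3 fell and 2 rose, and without cKO replicate 1 these counts were also 3 and 2. Those that fell were Tuba1a, the main alpha tubulin of young neurons (log2 -0.37, SE 0.072, limma adjusted p 0.0142), Tubb2a (log2 -0.43, SE 0.065) and Tubb2b (log2 -0.37, SE 0.078, limma adjusted p 0.0188), which missed the threshold in DESeq2 (adjusted p 0.0534). Those that rose were Tuba1c (log2 0.49, SE 0.075, limma adjusted p 0.00749) and Tuba1b (log2 0.22, SE 0.054, limma adjusted p 0.0329), alpha tubulins with broad expression; Tuba1b is named to complete the count. Tuba1c had 846 and 792 normalized counts in the cKO libraries, against 597 and 571 in the controls. Tubulin genes are close copies, so how the counting divided reads between them is uncertain. Tuba8 was not analysed here. The ratio of Tubb3 to Tuba1a counts was 0.577 and 0.584 in the cKO libraries, against 0.642 and 0.597 in the controls.

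Among 18 other microtubule-associated and end-binding genes, 7 fell in limma, none rose (also none at an unadjusted p under 0.05 or with edgeR) and 11 missed the threshold (median -0.13); with edgeR 4 fell, and without cKO replicate 1, 5. Mapre2, an end-binding protein, fell by 0.41 on the log2 scale (SE 0.049, limma adjusted p 0.00465), Clasp2, which steadies growing ends, by 0.34 (SE 0.054) and Map6, which protects axonal microtubules from cold, by 0.33 (SE 0.055). Camsap3, a minus-end binder, fell by 0.25 (SE 0.054, limma adjusted p 0.0212), but did not pass with edgeR (adjusted p 0.0645) or DESeq2 (adjusted p 0.0754). Of 4 tested relatives in the doublecortin and stathmin families none fell in limma or edgeR (1 at an unadjusted limma p under 0.05) and 1 rose, Dcdc2a, a ciliary doublecortin protein (51.4 and 37.2 normalized counts in the cKO, against 21.4 and 20.5 in the controls; log2 1.03, SE 0.28, limma adjusted p 0.0437). Dcdc2a missed the threshold in edgeR (adjusted p 0.0532), after quantile scaling, without the filter, and without any 1 of cKO replicate 1, control replicate 1 and control replicate 2. Stmn1 had a log2 change of -0.14 and Stmn4 of -0.23, neither of which passed; both are named after their values were seen.

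Of 6 tested intermediate filament genes outside Nefl and Nefm, 1 fell and 1 rose; without cKO replicate 1, 1 fell and 0 rose (2 at an unadjusted p under 0.05). Ina, the alpha-internexin of young axons, had 3856 and 4058 normalized counts in the cKO libraries, against 5033 and 4830 in the controls (log2 -0.32, SE 0.049, limma adjusted p 0.00749). Prph, the peripherin of peripheral and long-projecting neurons, rose, with 204 and 139 in the cKO libraries, against 88.7 and 100.5 in the controls (log2 0.83, SE 0.20, limma adjusted p 0.0302). Without cKO replicate 1 the log2 change of Prph was 0.55 and did not pass (adjusted p 0.112). Vim, the vimentin of progenitors, had a log2 change of 0.16 (adjusted p 0.0562) and Nes, the nestin of progenitors, of 0.09; neither passed, and both are named after their values were seen. The heavy neurofilament gene Nefh was under the filter and was not tested.

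Of 20 kinesin and dynein transport genes, 9 fell and 1 rose (median -0.16); with edgeR 5 fell and 1 rose, as was the count in limma without cKO replicate 1. The dynein intermediate chain gene Dync1i1 had 519 and 804.5 normalized counts in the cKO libraries, against 1458 and 1356 in the controls (log2 -1.12, SE 0.17, limma adjusted p 0.00736). The neuronal kinesin genes Kif5a and Kif3c fell by 0.47 (SE 0.058) and 0.32 (SE 0.056) on the log2 scale. Nde1, a dynein regulator that dividing progenitors need, rose (log2 0.31, SE 0.049, limma adjusted p 0.00791). Of 22 tubulin folding, severing and modifying genes, 8 fell and 1 rose (median -0.15), and without cKO replicate 1, 5 fell and 0 rose (1 at an unadjusted p under 0.05). Among those that fell were the tubulin acetyltransferase gene Atat1 (log2 -0.31, SE 0.046), the deglutamylase gene Agtpbp1 (log2 -0.41, SE 0.060), the glutamylase gene Ttll1 (log2 -0.38, SE 0.063) and the tyrosine ligase gene Ttl (log2 -0.28, SE 0.051). The gene that rose was Fignl1 (log2 0.34, SE 0.087, limma adjusted p 0.0357), named to complete the count; with edgeR no gene of this list rose.

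Growth cone genes fell in 6 of 9 cases (median -0.21), with none rising in limma, at an unadjusted p under 0.05 or in edgeR, and 4 fell without cKO replicate 1. Gap43, a membrane protein of growing axons, had 3624 and 4445 normalized counts in the cKO libraries, against 6032 and 5728 in the controls (log2 -0.55, SE 0.086, limma adjusted p 0.00791). The collapsin response genes Crmp1, Dpysl3 and Dpysl5, whose proteins bind tubulin, fell by 0.38, 0.34 and 0.26 on the log2 scale. Of 9 kinases of tau and their activators, 2 fell and 0 rose in limma (none at an unadjusted p under 0.05 or in edgeR either), and 2 fell without cKO replicate 1. Those that fell were Cdk5r1, the neuronal activator of Cdk5 (log2 -0.36, SE 0.055, limma adjusted p 0.00736), and the kinase gene Mark1 (log2 -0.40, SE 0.065, limma adjusted p 0.00872).

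**Figure D4:**
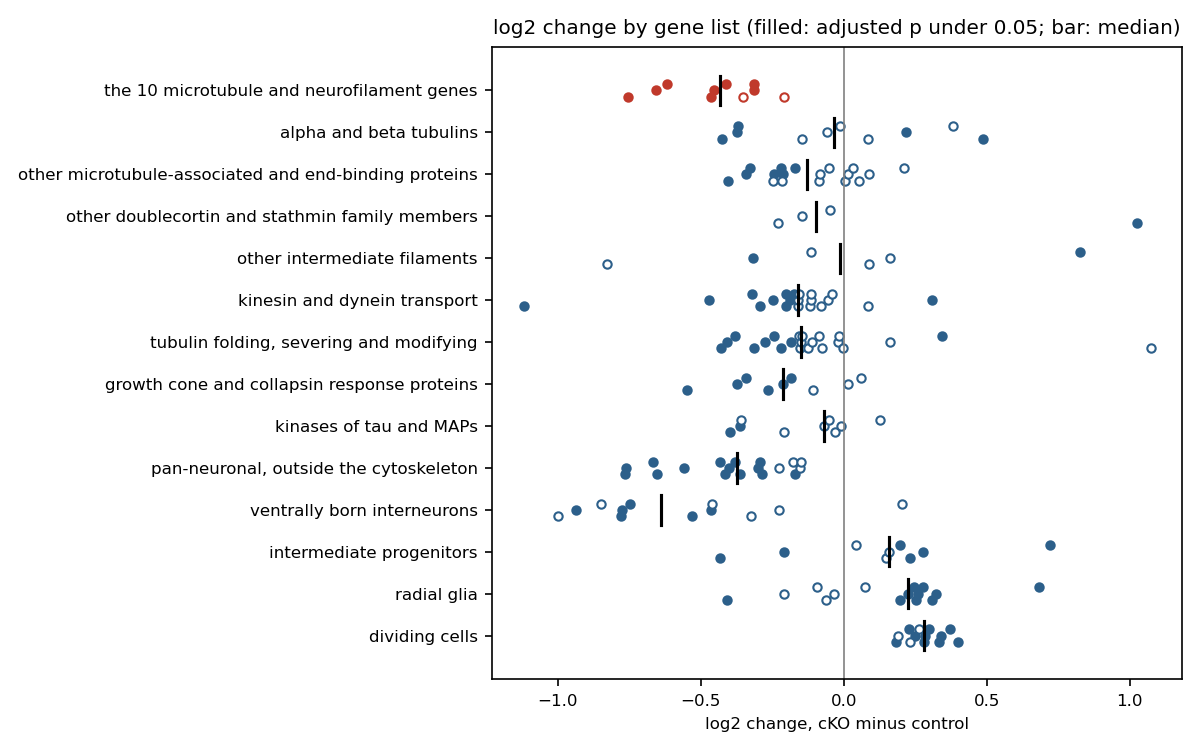
The log2 change, cKO minus control, of each tested gene (points, filled where the adjusted p is under 0.05) by list, with the median of each list as a bar. The median of the 10 genes at the top is -0.43, those of the related cytoskeleton lists lie between -0.21 and -0.01, and those of radial glia and dividing cell markers are 0.23 and 0.28.

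Markers of several cell types also differed between the genotypes. Of 18 pan-neuronal genes outside the cytoskeleton, 14 fell and 0 rose (median -0.37), with a summed level of 67350 and 71516 in the cKO, against 87609 and 88401 in the controls. Of 12 markers of ventrally born interneurons, 6 fell and 0 rose (median -0.64), with a summed level of 3600 and 3631 in the cKO, against 4273 and 4694 in the controls. Of 15 radial glia markers 9 rose and 1 fell (median 0.23), with a summed level of 97316 and 96349 in the cKO, against 88732 and 90542 in the controls. Of 13 markers of dividing cells 10 rose and 0 fell (median 0.28), with a summed level of 111083 and 103784 in the cKO, against 86097 and 92069 in the controls. Counts of 0 are from limma; at an unadjusted p under 0.05, 0 pan-neuronal genes and 1 interneuron gene rose and 0 genes of dividing cells fell, and edgeR gave 0 in all 3 cases. Without cKO replicate 1, 13 pan-neuronal and 6 interneuron genes fell, and 7 radial glia genes and 7 genes of dividing cells rose. Without control replicate 1 these counts were 5, 2, 1 and 0 (10 genes of dividing cells at an unadjusted p under 0.05), and without control replicate 2 they were 5, 1, 1 and 1. Of 9 markers of intermediate progenitors 4 rose and 2 fell (median 0.16), with a summed level of 40352 and 41106 in the cKO, against 39245 and 39048 in the controls; without cKO replicate 1, 3 rose and 1 fell. Of 4 tested erythroid markers 2 fell (median -1.08), with a summed level of 890 and 1407 in the cKO, against 1675 and 2350 in the controls; without cKO replicate 1, 2 fell as well, with a median of -0.57. Of 5 tested choroid plexus markers 2 rose (median 0.55, and 0.405 without cKO replicate 1). Their summed level was 494 and 485 in the cKO, against 337 and 351 in the controls. The largest part of it was Otx2, with 297 and 297 in the cKO, against 191 and 214. Ttr went the other way without passing, with 9.25 and 5.87 in the cKO, against 19.50 and 14.05 in the controls (log2 -1.07, limma adjusted p 0.128). Of 8 Cajal-Retzius markers 1 fell in limma and 1 in edgeR, and of 7 endothelial and 7 microglial markers none was called by either tool, with 2 endothelial and 0 microglial genes at an unadjusted limma p under 0.05. The part of these cell types in the fall of the 10 genes was not tested. Of 7 meningeal markers 2 rose, and their summed level was 8351 and 1786 in the cKO, against 1412 and 1229 in the controls. Their median log2 change was 1.48, and 0.09 without cKO replicate 1. Their part in the fall of the 10 genes was not tested either.

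The genes outside the 10 whose 4 log2 values, each minus its own mean, lay nearest to the median pattern of the 10 were Syngr3, Fam20c, Angptl6, Mapre2 and Lrguk. Their Euclidean distances over the 4 libraries ranged from 0.027 to 0.0359, and their log2 changes from -0.42 to -0.41. Syngr3, Fam20c and Mapre2 passed the test, whereas Angptl6 (adjusted p 0.0591) and Lrguk (adjusted p 0.397, 16.4 to 23.4 normalized counts per library) did not. This likeness is a description over 4 libraries.

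Of the 6995 listed Rcor2 peaks 4 were named for 3 of the 10 genes, Map2, Map1b and Nefl; of all tested genes 20.9% were named for a peak, a share near that of the 10. Mapt, Stmn2, Stmn3 and Tubb3, which fell most, had no named peak and no peak within their RefSeq spans. The nearest peak was 14.2 kb from the Stmn3 span (named for Gmeb2), 301 kb from Stmn2, 411 kb from Tubb3 and 868 kb from Mapt. Dcx and Dclk1 also had none in their spans, with the nearest at 790 kb and 197 kb, and the nearest to Nefm was the peak named for Nefl, at 67.9 kb. None of the 8 promoter windows overlapped a peak, nor did the 3 stretches printed above, against 1.89% of all windows that did, and none of the 4 peaks was in the promoter class of the authors, which holds 1619 peaks.

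The strongest of the 4 peaks lay in Map1b, at chr13:99458636-99459010 (mm10), 57.8 kb into the gene. Its heights were 24 and 25 in the Rcor2 libraries, against 5 and 2 in the IgG libraries and 14 and 12 in the inputs. Its fold enrichment over IgG, as the authors' deposited table gives it, was 7.49, above that of 97.2% of listed peaks. Both Rcor2 heights exceeded both input heights at this peak, as at 40.3% of all peaks. It was also the only 1 of the 4 with a −log10 q of at least 10 in that table (21.9). The share of all peaks at this level was not counted.

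The other 3 peaks were weak. The weaker Map1b peak, at chr13:99443702-99443851 and 72.8 kb into the gene, had heights of 8 and 18 in the Rcor2 libraries, against 1 and 7 with IgG and 13 and 21 in the inputs. Its input heights were therefore as high as those with the Rcor2 antibody. The Map2 peak, at chr1:66395257-66395406 and 220 kb into the gene, had heights of 9 and 17 with Rcor2, against 4 and 2 with IgG and 11 and 6 in the inputs. The Nefl peak, classed as distal at chr14:68051443-68051603 and 32.3 kb from the Nefl span, had heights of 9 and 18 with Rcor2, against 5 and 2 with IgG and 8 and 12 in the inputs. Fold enrichments over IgG in the authors' deposited table were 3.33, 3.66 and 3.50, below the median of 4.0 over all peaks. At all 4 peaks both Rcor2 heights exceeded both IgG heights, as at 98.9% of all peaks, a contrast on which the peaks had been called. Whether the gene body peaks lie in exons or introns was not analysed here.

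**Figure D5:**
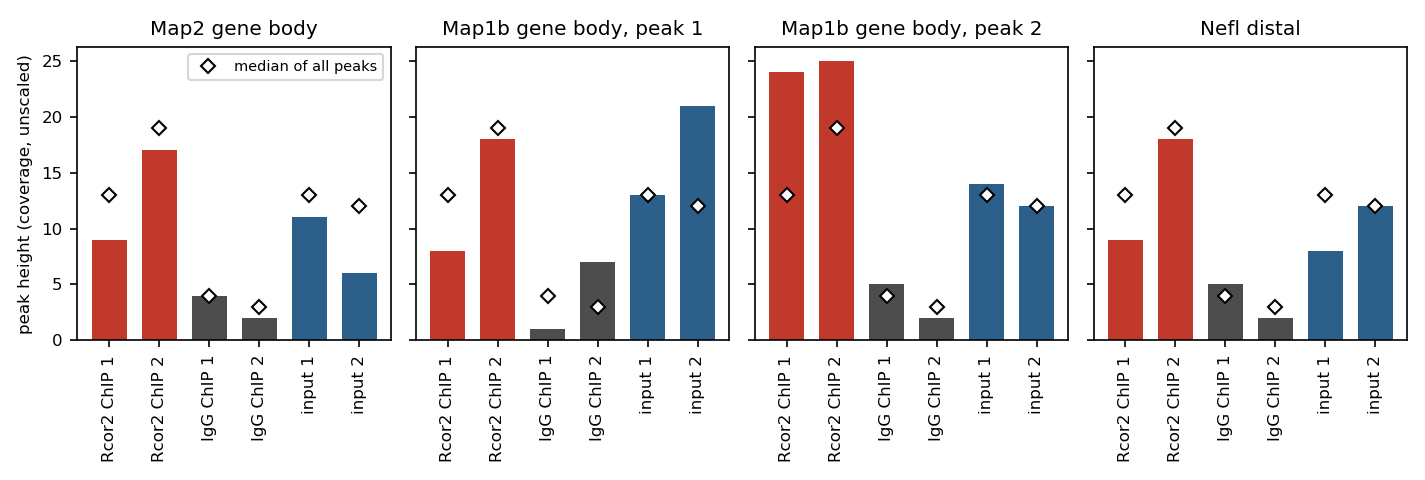
Heights (bars, unscaled coverage) of the 4 peaks in the 6 ChIP-seq and input libraries, with the median over all listed peaks as diamonds. Only the second panel of Map1b, the peak at 57.8 kb, has both Rcor2 bars (24 and 25) above both input bars (14 and 12).

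The genes with a named peak were not those that fell most. Map1b, with the strongest peak, had a log2 change of -0.21, Map2 of -0.32 and Nefl of -0.35, against -0.75 for Mapt, -0.66 for Stmn3 and -0.62 for Stmn2, which had none. With 3 genes on 1 side this is a description, and ChIP-seq was made in wild-type midline only, so that binding in the cKO was not measured.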

How the data were processed

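Per the submitters' processing notes, HISAT2 2.1.0, Trim Galore and mouse build mm10 were used. The gene counter, annotation and strand use were not given in the sources used here. Of the peak calling, only the contrast with IgG was known, from the peak names. As the file headers show, the deposited RNA signal is a normalized count per gene and library. Divided by the smallest value of their column, 100% of values were whole numbers within a tolerance of 0.001, so whole reads were recovered. The authors' deposited log2 fold changes and p-values were used only where named. The deposited test statistic, a score of the authors' test per the file headers, was not used. Per the file headers, the peak table gives heights (a coverage signal, not scaled for depth) in 6 libraries, a fold enrichment over IgG (a ratio) and, in a column with a spoiled header, values taken as −log10 of q from their place and range; all are the authors'.

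The 4 RNA libraries were compared with limma-trend (limma 3.58.1, R 4.3.3) on log2(normalized count + 1), two-sided, without a replicate block, keeping the 14324 genes whose mean reached 10. Benjamini-Hochberg adjustment ran over these genes, with calls at an adjusted p under 0.05. There were 2 residual and 6.21 prior degrees of freedom. The fit was tested on simulated data. Recovered reads were also tested with edgeR 4.0.16 (1742 genes called) and DESeq2 1.42.0 (1577). Other alternatives were TMM and quantile scaling, a pseudocount of 5, no filter, a replicate block and leaving out each library. RefSeq tables of GRCm38.p6, the same assembly as mm10, gave spans and promoters. Figures were drawn with matplotlib 3.10.9.

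The 10 genes and all gene lists were chosen with earlier results of these data known. Named genes were Rcor2, the 10 genes and the 5 genes with the nearest pattern. From each related list came the called genes with the smallest adjusted p, up to 4 (2 by abundance where none was called). Stmn1, Stmn4, Vim, Nes, Tuba1b, Fignl1, Otx2 and Ttr lie outside this rule and were named after their values were seen. No set test was made.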

Additional observations from a re-analysis of the deposited data

How the results depend on the processing

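All 10 genes kept their direction under every alternative run. Of the 10, 8 fell under TMM scaling, quantile normalization, a pseudocount of 5, no filter, edgeR and DESeq2. In that order, 1049, 895, 1194, 1036, 927 and 827 of all genes fell, against 1188 in the main fit. DESeq2 called Map1b (adjusted p 0.0011) and not Nefm (adjusted p 0.179). Leaving out single libraries gave 2 to 8 called, with 140 to 3453 genes called in all and 0 to 53 related cytoskeleton genes; the cause was not tested. The scalings moved the median log2 change of all genes from -0.0120 to 0.0027 (TMM) and 0.0009 (quantile). Same-numbered libraries deviated together (correlation 0.441 over 11641 genes with a mean of at least 100), and same-numbered libraries share sex; with 2 pairs this is only a hint. The replicate block left the count at 8 of the 10 and gave 2076 genes in all and 39 related genes. With heights divided by the library median, which sets the typical peak level with IgG and input by construction, 1 of the 4 peaks had both Rcor2 heights above both IgG heights. Above both inputs there was 1 peak, and 1 to 3 without single libraries. At a −log10 q of at least 10, 1 of the 10 genes had a peak. The shares of all peaks or of all tested genes under these changed settings were not counted. These counts are therefore no trait of the 4 peaks. Few reads limit Nefl and Nefm, and 2 libraries per group limit every test.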
